A study of Mus musculus with 3 samples.

Results

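The 10 genes described here serve MHC class I antigen presentation in intestinal epithelial cells (IEC), together with Irf1, a transcription factor that acts on several of them. They were taken by name from the table of 35824 genes, and all 10 were present in it. They were followed in the 3 libraries of IEC sorted from small intestinal organoids (SIO) after 4 days of co-culture with type-3 innate lymphoid cells (ILC3). SIO are crypt-derived epithelial structures grown in Matrigel, here from the ileum of female CD45.1 C57BL/6 mice, aged 6 to 8 weeks in the sample labels. All cultures held ILC3 from the lamina propria of GFP reporter mice and medium with IL-2, IL-7 and IL-15. Library C is marked in the labels as left out of the final analysis, while libraries A and B are marked as used in it. Libraries of IEC cultured without ILC3 were not analysed here, so the effect of ILC3 on these genes was not measured. The comparison that the labels allow is library C against A and B, 1 library against a pair.

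MHC class I molecules display peptides from inside the cell to CD8 T cells and to receptors on innate lymphocytes. A heavy chain pairs with beta-2 microglobulin, the proteasome cuts proteins into peptides, the TAP transporter carries the peptides into the endoplasmic reticulum, and tapasin holds the empty class I molecule at TAP until a peptide is bound. Interferon gamma raises IRF1 and NLRC5, which act on the promoters of these genes. It also raises the proteasome subunits that replace the constitutive ones to form the immunoproteasome. In the gut, the epithelium is a target of interferon gamma from lymphocytes, and ILC3 of some subsets can make this cytokine.

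The promoters of the most abundant members and of Irf1 are shown because they carry the elements that are known to link these genes to interferon and to NLRC5. RefSeq sequences for GRCm38.p6 were found for 8 of the 10 members. Tap2 and Nlrc5 were not matched. The 200 bases before the RefSeq start are printed 5′ to 3′ on the strand of the gene. Capitals mark matches to enhancer A, an NF-kB site whose letters are the first run of capitals in H2-K1, the core of an interferon response element (GAAA, any 2 bases and GAAA again, or GAANNGAAA as a looser IRF core), a GAS, the gamma-activated site of interferon-responsive genes (TTCNNNGAA), and the pair TGACG and ATTGG, letters found in the X2 and Y boxes of the module to which NLRC5 is recruited. All were searched on both strands except the pair, which was read on the printed strand.
H2-K1 (chr17:34000348-34000547, minus strand): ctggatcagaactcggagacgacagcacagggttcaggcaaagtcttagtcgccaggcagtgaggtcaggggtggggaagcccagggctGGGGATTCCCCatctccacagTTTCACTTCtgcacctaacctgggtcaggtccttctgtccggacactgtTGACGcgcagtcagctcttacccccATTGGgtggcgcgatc
H2-D1 (chr17:35262894-35263093, plus strand): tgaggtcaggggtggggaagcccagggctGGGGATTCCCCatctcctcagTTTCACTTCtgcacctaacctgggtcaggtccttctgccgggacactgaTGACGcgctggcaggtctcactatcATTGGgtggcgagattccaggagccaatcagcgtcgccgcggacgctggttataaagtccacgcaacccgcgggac
B2m (chr2:122147487-122147686, plus strand): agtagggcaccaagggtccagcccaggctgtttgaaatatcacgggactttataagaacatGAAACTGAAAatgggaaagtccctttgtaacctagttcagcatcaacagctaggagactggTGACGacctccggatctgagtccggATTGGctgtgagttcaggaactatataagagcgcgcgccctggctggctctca
Irf1 (chr11:53769814-53770013, plus strand): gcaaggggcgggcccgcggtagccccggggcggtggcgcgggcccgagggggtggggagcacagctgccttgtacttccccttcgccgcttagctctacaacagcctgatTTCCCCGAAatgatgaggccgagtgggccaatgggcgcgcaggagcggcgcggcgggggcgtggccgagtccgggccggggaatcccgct

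H2-K1 and H2-D1 held the same order of elements, enhancer A, the IRF core on the reverse strand and the TGACG and ATTGG pair, and over 140 aligned bases their promoters were identical at 127 positions (90.7%). B2m held the interferon response core and the pair, without the exact letters of enhancer A. Other forms of NF-kB site were not searched, so their absence from B2m or any other window is not shown. In all 3 genes exactly 20 bases lay between TGACG and ATTGG. This spacing was found in 13 of 27025 promoters of the same length (0.0481%), and H2-M3, a nonclassical class I gene, was another of them. The rest were BC051142, Ghitm, Gm33299, Ibsp, Nfe2l1, Slc8a3, Trim26, Ubn1 and Xpnpep1. The spacing was taken from the members, so they were bound to be among the 13. Enhancer A was found in 6 promoters (0.0222%), the interferon response core in 2.33%, the looser IRF core in 5.0%, the GAS in 5.62%, TGACG alone in 15.8% and CCAAT in 8112 promoters. Irf1 held a GAS from 90 to 82 bases before its start. Psmb8 held a GAS from 97 to 89 bases before its start. The letters were chosen with the sequences in view and a match is a description of the window, not a measured site.

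Psmb9 and Tap1 are read in opposite directions from 1 shared stretch, and the 225 bases between their RefSeq starts are shown for that reason. Capitals mark CCAAT next to the Psmb9 start and TGACG.
Between Psmb9 and Tap1 (chr17:34187331-34187555, plus strand): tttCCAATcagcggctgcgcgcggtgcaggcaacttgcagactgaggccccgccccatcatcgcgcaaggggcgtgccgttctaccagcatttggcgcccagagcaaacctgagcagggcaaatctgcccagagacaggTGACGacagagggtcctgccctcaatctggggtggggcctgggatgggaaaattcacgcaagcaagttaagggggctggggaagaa
TGACG stood from base 140 to base 144 of this stretch, and no copy of enhancer A, the interferon response or IRF core or GAS was found in it.

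**Figure D1:**
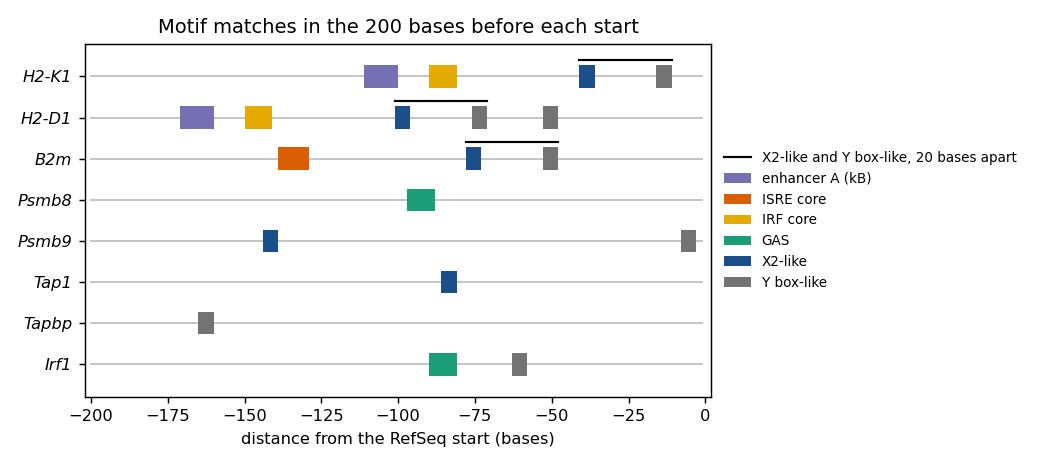
Motif matches in the 200 bases before the RefSeq start of the 8 members with a promoter in the table, drawn to scale by distance from the start in bases. Coloured blocks are matches on either strand and black lines join TGACG (X2-like) to ATTGG (Y box-like), which lie 20 bases apart in H2-K1, H2-D1 and B2m.

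H2-K1, H2-D1, Tapbp, Tap1, Tap2, Psmb8 and Psmb9 lie in the MHC region of chromosome 17 (GRCm38, GENCODE M21 models). H2-K1 (ENSMUSG00000061232) spans 33996017 to 34000347 on the minus strand and H2-D1 (ENSMUSG00000073411) 35262730 to 35267499 on the plus strand. The H2-D1 window printed above, from 35262894 to 35263093, lies inside this gene model, because its RefSeq start is downstream of the GENCODE start. Tapbp (ENSMUSG00000024308) spans 33915899 to 33929292. A run of neighbours holds Psmb9 (ENSMUSG00000096727) from 34181987 to 34187764, Tap1 (ENSMUSG00000037321) from 34187553 to 34197225, Psmb8 (ENSMUSG00000024338) from 34197721 to 34201454 and Tap2 (ENSMUSG00000024339) from 34203527 to 34216321, with Psmb9 alone of these on the minus strand. B2m (ENSMUSG00000060802) lies on chromosome 2 from 122147686 to 122153083, Irf1 (ENSMUSG00000018899) on chromosome 11 from 53770014 to 53778374 and Nlrc5 (ENSMUSG00000074151) on chromosome 8 from 94434356 to 94527272. The stretch printed above between the RefSeq starts of Psmb9 and Tap1 also lies inside the Psmb9 model, whose GENCODE start is upstream of its RefSeq start. The 5′ ends of Psmb9 and Tap1 overlap on opposite strands. SMART-Seq2 libraries keep no strand, so reads of that overlap cannot be told apart.

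The 3 libraries held 17946361 (A) to 28913885 (C) counts, so that 3 counts, the limit used here for a gene at 0, equal 0.105 CPM in C, 0.166 in A and 0.130 in B. CPM are counts scaled to the library total, adjusted by TMM factors. Genes with at least 10 counts numbered 11986 in C, 12549 in A and 12964 in B, fewest in the library with the most counts. The sorted IEC were checked against markers. Epcam was at 1133 CPM in C, against 1663 in A and 1720 in B, and the 9 epithelial markers summed to 13090 CPM in C, 11160 in A and 11880 in B. Ptprc, which encodes CD45, had 1 count in A and 0 in C and B. Of 18 lymphocyte and ILC3 markers, 13 had at most 3 counts in every library. Il7r, Ncr1 and Il23r had at most 2 counts, and Kit was at 7.85 CPM in C, against 12.4 in A and 30.1 in B. Myeloid markers summed to 3.45, 3.53 and 1.17 CPM, and stromal and endothelial markers to 1.78, 2.37 and 0.952 CPM. In bulk RNA, a change in the share of cells that express a gene and a change in RNA per cell cannot be told apart.

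IEC in co-culture expressed the presenting molecules strongly. The heavy chain gene H2-K1 was at 610.4 CPM in C, against 792 in A and 641 in B (681 ± 97.2, SD, n = 3), and the other classical heavy chain gene H2-D1 at 383 CPM in C, against 375 in A and 298 in B (352 ± 47.0, SD, n = 3). B2m, the shared light chain, was at 296 CPM in C, against 308 in A and 337 in B (314 ± 20.98, SD, n = 3), the narrowest spread relative to its mean of the 10 genes. The exact Poisson intervals for H2-D1 in C (376 to 391 CPM) and in A (366 to 384 CPM) overlapped, whereas B lay below both.

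Levels of different genes were compared per kilobase of exon. B2m led the members at 365 ± 24.4 CPM per kb (SD, n = 3), followed by H2-K1 at 232 ± 33.1 and H2-D1 at 137 ± 18.2 CPM per kb, and this order held in each library. B2m was above 98.8% of the genes tested in C, 98.9% in A and 98.9% in B, and H2-D1, the lowest of the 3, was still above 96.8%, 97.1% and 96.2%. Per kilobase, B2m reached 0.966 times the sum of both heavy chains in C, 0.863 times in A and 1.17 times in B. H2-K1 stood over H2-D1 by 1.40 times in C, 1.86 times in A and 1.89 times in B. Of the 31-base words in H2-K1 transcripts, 11.1% also occurred in H2-D1, and 13.8% of those of H2-D1 occurred in H2-K1. Part of the reads could thus be assigned to either gene, and the split between them is uncertain. With any other gene, 22.8% of the words of H2-K1 and 26.9% of those of H2-D1 were shared. The sum of H2-K1 and H2-D1, 994 CPM in C, against 1167 in A and 939 in B, does not settle words shared with further genes. Shared words were not counted for the other class I heavy chain genes. B2m shared no such word with another gene.

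**Figure D2:**
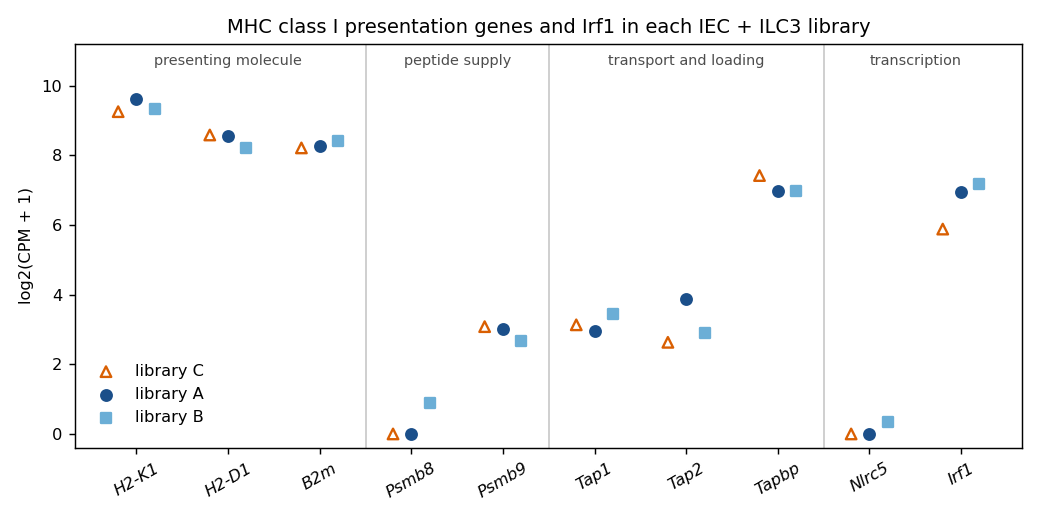
Level of the 10 genes as log2(CPM + 1) in library C (open triangles), A (circles) and B (squares), grouped by role. The presenting molecules, Tapbp and Irf1 lie high, Psmb9, Tap1 and Tap2 near 3 on this scale, and Psmb8 and Nlrc5 at 0 in C and A.

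Among the members, the transport and loading genes fell into 2 tiers, which does not extend to the wider loading list. In that list, Tapbpl at 14.5 and Erap1 at 12.6 CPM per kb lay between Tapbp and the transporter chains. Tapbp, which encodes tapasin, had 4884 counts in C, 2267 in A and 2865 in B. These are 170.4 CPM in C, against 125 in A and 124 in B, so C lay above a narrow pair (124.5 ± 0.803 CPM in A and B, SD, n = 2). Both chains of the peptide transporter were far lower. Tap1 was at 7.78 CPM in C, against 6.79 in A and 9.86 in B, with C between the others. Tap2 was at 5.20 CPM in C, against 13.8 in A and 6.45 in B. The Poisson interval of Tap2 in A (12.1 to 15.6 CPM) lay above those in C (4.40 to 6.10 CPM) and B (5.45 to 7.57 CPM), so the high value belonged to A alone, at 2.14 times B. Per kilobase, Tap1 was at 1.49 ± 0.287 and Tap2 at 2.24 ± 1.23 CPM per kb (SD, n = 3), whereas Tapbp was at 38.5 ± 7.30 CPM per kb. Tap1 over Tap2 was 1.03 in C, 0.340 in A and 1.06 in B. Transcripts of Tap2 shared 11.3% of their words with Gm15821 and those of Tapbp 22.1% with Gm19412, annotated genes on the opposite strand that were not analysed here.

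The interferon-inducible proteasome subunits were unequal. Psmb8, which provides the chymotrypsin-like site of the immunoproteasome, had 0 counts in C, 0 in A and 20 in B, which is 0.865 CPM in B with a Poisson interval of 0.529 to 1.34 CPM. Psmb9, which provides the caspase-like site, had 214 counts in C, 129 in A and 125 in B, or 7.46 CPM in C against 7.12 in A and 5.41 in B. Psmb10, the third inducible subunit, was by contrast at 169 CPM in C, against 96.7 in A and 100.5 in B. Of the words of Psmb8, 13.0% were shared with Gm20496 on the opposite strand, which was not analysed here.

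Each inducible subunit was set against the constitutive subunit whose place it takes, per kilobase. Psmb8 was at 0% of Psmb5 in C and A and at 0.0934% in B. Psmb9 was at 0.622% of Psmb6 in C, 1.19% in A and 1.08% in B (0.961 ± 0.299%, SD, n = 3). Psmb10 exceeded Psmb7 in all 3 libraries, at 292% in C, 185% in A and 157% in B (211 ± 71.2%, SD, n = 3). The constitutive subunits were at 193.6, 279.9 and 274.2 CPM per kb for Psmb5, 328, 164 and 137 for Psmb6 in C, A and B, while Psmb7 lay between 30.6 (A) and 37.5 (B) CPM per kb. Per kilobase, the trypsin-like site, served by Psmb10 and Psmb7, was thus the only one of the 3 with more of the inducible transcript. This held in C, A and B, but in A and B it rested on the division by exon length. In CPM, Psmb10 was at 96.7 against 104.8 for Psmb7 in A and at 100.5 against 128.3 in B. Only in C was it higher in CPM as well, at 169.3 against 116.3.

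**Figure D3:**
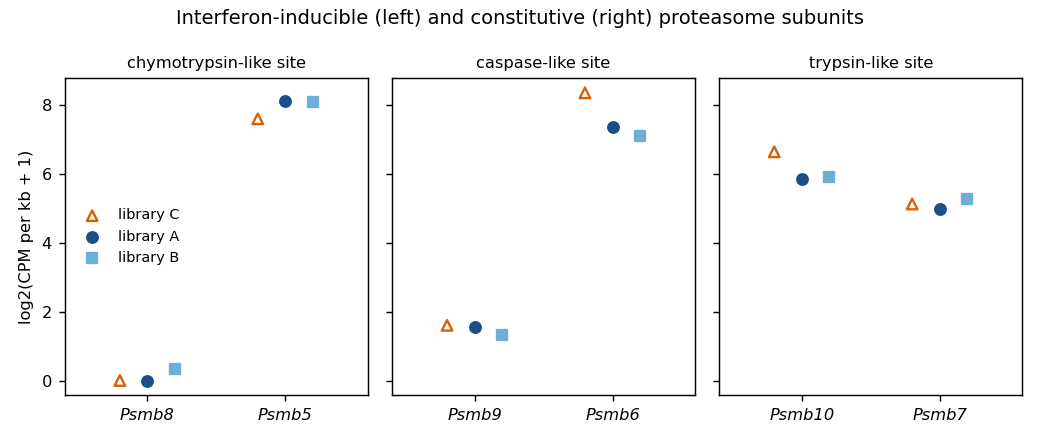
Inducible and constitutive catalytic subunits of the proteasome as log2(CPM per kb + 1) in library C (open triangles), A (circles) and B (squares), 1 panel per catalytic site. Psmb8 and Psmb9 lie far below Psmb5 and Psmb6, while Psmb10 lies above Psmb7 in each library.

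The regulators also stood far apart. Nlrc5, the class I transactivator, had 0 counts in C, 0 in A and 6 in B, where 6 counts are 0.260 CPM with a Poisson interval of 0.0953 to 0.565 CPM. For a count of 0, the limit of 3 counts is 0.105 CPM in C and 0.166 CPM in A, and the upper end of the two-sided 95% Poisson interval is 0.129 CPM in C and 0.204 CPM in A, for counting error only. Irf1 had 1664 counts in C, 2209 in A and 3304 in B. Irf1 was at 58.0 CPM in C, against 122 in A and 143 in B. Library C lay below both others, and the gap of C to the nearer library was wider than that between A and B. Per kilobase, Irf1 was above 73.6% of the genes tested in C, against 85.6% in A and 88.3% in B.

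Library C was then tested against A and B across all 13604 genes that passed the filter on low counts, with edgeR's quasi-likelihood test at an adjusted p under 0.1. Of the 10 members 9 passed the filter, and Nlrc5 did not. Irf1 was the 1 member called, 2.28-fold lower in C (log2 fold change -1.19, standard error 0.30, 95% interval -1.89 to -0.49, adjusted p = 0.0873). Over all genes tested, 898 (6.6%) were called, 711 lower (5.23%) and 187 higher (1.37%), against 1 of the 9 members tested. The call of Irf1 was lost when a trend of C over A and B with GC content was removed (log2 fold change -1.08, adjusted p = 0.107 from edgeR) and at a threshold of 0.05. Against B alone its log2 difference was -1.30 and against A alone -1.07, values of 2 libraries with no test.

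The other members gave no call. H2-K1 had a log2 fold change of -0.23 (95% interval -0.92 to 0.46), H2-D1 of 0.19 (-0.49 to 0.87) and B2m of -0.12 (-0.78 to 0.53) and these intervals also show how large a difference the libraries would leave unseen. With H2-K1 and H2-D1 counts summed, an alternative chosen after the data were seen, the log2 fold change was -0.08 (adjusted p = 0.895 from edgeR). Tapbp, at 0.45 (interval -0.18 to 1.08), and Tap2, at -0.96 (-2.54 to 0.62), had the largest values of the members not called and well counted. The value of Tap2 rested on library A, since C against B alone gave -0.31 and C against A alone -1.39. Psmb9 was at 0.25 (-1.24 to 1.75) and Tap1 at -0.10 (-1.48 to 1.28), and the sign of Tap1 turned with the GC trend removed (0.11). For Psmb8 no fold is given, since C and A were both at 0.

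The median log2 fold change of the 9 members tested was -0.12, against -0.10 over all genes tested. In 7 of the 9, C lay outside the pair A and B, against 78.6% of all genes tested. The median absolute difference between A and B, without regard to sign, was 0.33 on the log2 scale for the members and 0.39 for all genes tested. These counts describe the members and are near the values of the whole table.

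**Figure D4:**
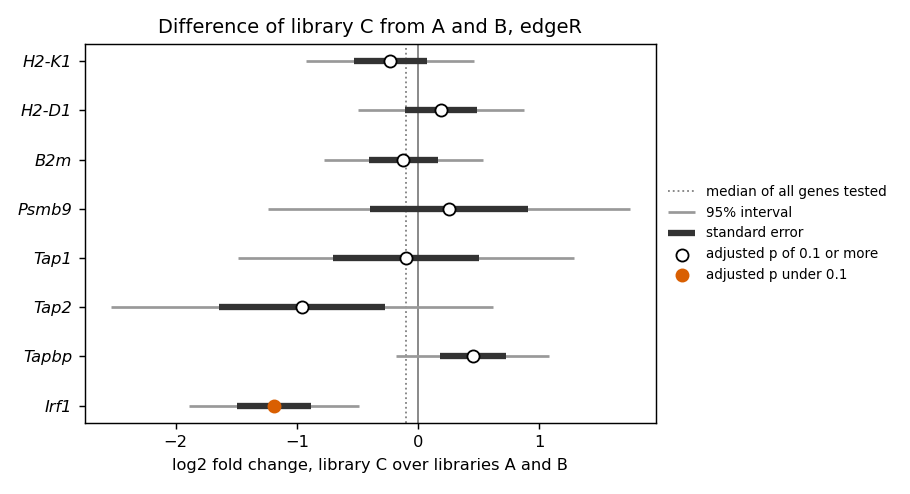
Log2 fold change of library C over A and B for the 8 members with over 100 counts in every library, with the standard error (thick bars) and 95% interval (thin bars) from edgeR. Irf1 (filled) has an interval below 0, whereas those of the other 7 members cross 0.

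The wider pathway was read from 7 lists with 66 genes in all, 56 of them tested. Calls by edgeR were made for 2 of these 56 genes, Irf1 and Psmb6, against 6.6% of all genes tested, so the lists held no larger share of calls than the whole table. At an unadjusted p under 0.05 were 3032 of all genes tested (22.3%), the background for the counts given for each list. Psmb6, the constitutive subunit of the caspase-like site, was at 614 CPM in C, against 307 in A and 257 in B, and it was higher in C (1.12 ± 0.28 as log2 fold change ± standard error, adjusted p = 0.0839 by edgeR). Its call was lost when a trend with exon length was removed (0.96, adjusted p = 0.120 from edgeR) and at a threshold of 0.05. Psmb5 was at 174 CPM in C, against 252 in A and 246 in B, and Psmb7 at 116 CPM in C, against 105 in A and 128 in B, neither called.

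Of 20 class I heavy chains and relatives, 16 were tested and 0 were called by edgeR, with 4 at an unadjusted p under 0.05 and 1 call by DESeq2, which was Hfe. Their median log2 fold change was -0.41. Hfe was at 5.86 CPM in C, against 21.35 in A and 16.7 in B (log2 fold change -1.70). It was also called by edgeR with plain totals and with no filter. The list holds H2-K1, H2-D1 and B2m as its most abundant genes. Among the nonclassical genes, named after their values were seen, H2-Q2 was at 55.1 CPM in C, against 115 in A and 68.4 in B, and H2-T23, which encodes the ligand Qa-1 of NK cell receptors, at 21.6 CPM in C, against 44.9 in A and 36.6 in B. H2-M3, whose promoter shares the spaced pair, was at 13.4 CPM in C, against 5.57 in A and 3.38 in B (log2 fold change 1.58, adjusted p = 0.188 from edgeR), and Mr1 was at 0 in all 3.

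All 10 genes of peptide supply and loading were tested and 0 were called by edgeR, with 1 at an unadjusted p under 0.05 and 1 call by DESeq2, which was Pdia3, and a median log2 fold change of 0.03. The chaperone Hspa5 was at 1825 CPM in C, against 1163 in A and 1249 in B. Pdia3, the disulfide isomerase of the loading complex, was at 1831 CPM in C, against 1106 in A and 1157 in B (log2 fold change 0.69, 95% interval 0.06 to 1.33, adjusted p = 0.193 from edgeR). Calreticulin, from Calr, which holds class I chains in that complex, was at 321 CPM in C, against 484 in A and 531 in B (log2 fold change -0.66, interval -1.34 to 0.01). The loading chaperones thus had opposite signs and none was called by edgeR.

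The 5 genes of the immunoproteasome and its activator gave 0 calls by edgeR, 2 at an unadjusted p under 0.05 and 0 calls by DESeq2, with a median log2 fold change of 0.25. Psme2, a subunit of the PA28 activator cap, was at 299.7 CPM in C, against 187 in A and 177 in B (log2 fold change 0.72, interval 0.09 to 1.35), while its partner Psme1 was at 142 CPM in C, against 164 in A and 203 in B (-0.37, interval -1.06 to 0.32). Psmb10 had a log2 fold change of 0.78 (interval 0.15 to 1.41, adjusted p = 0.154 from edgeR). Psmb10 was called by edgeR when the GC trend was removed (1.01, adjusted p = 0.0988) and when no filter was used (0.78, adjusted p = 0.0910).

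In the class I transactivation list, 10 of 11 genes were tested, and Irf1 was the 1 call by edgeR, lower, with 2 genes at an unadjusted p under 0.05, 1 call by DESeq2 and a list median of -0.07. The other gene at that p was Rfxap, named after its values were seen, which encodes a subunit of the RFX complex that binds the X box. Rfxap was at 16.9 CPM in C, against 2.81 in A and 5.41 in B (log2 fold change 2.04, adjusted p = 0.114 from edgeR), and it was called by edgeR with plain totals (adjusted p = 0.0952) and with no filter (adjusted p = 0.02004). Nfyc, a subunit of the factor that binds the CCAAT sequence, was at 63.1 CPM in C, against 77.0 in A and 57.2 in B, and the activator Atf1 at 28.4 CPM in C, against 47.0 in A and 29.6 in B. The path from the interferon gamma receptor to IRF1 gave 0 calls among 10 genes by edgeR, 0 at an unadjusted p under 0.05 and 0 by DESeq2, with a median of 0.28. Ifngr1, the ligand-binding chain, was at 463 CPM in C, against 425 in A and 265 in B, Ifngr2 at 217 CPM in C, against 185 in A and 168 in B, and the kinase Jak1 at 103 CPM in C, against 93.2 in A and 103 in B.

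MHC class II genes were scarce beside these. Of 7 genes 2 passed the filter and 0 were called by edgeR, with 0 at an unadjusted p under 0.05 and 0 by DESeq2. The list summed to 1.15 CPM in C, against 5.02 in A and 1.90 in B. H2-DMa, a peptide exchange factor, took most of it at 1.15 CPM in C, against 3.48 in A and 1.90 in B. Cd74, the invariant chain, was at 0 in C and B and at 1.16 CPM in A, H2-Aa was at 0 in C and B with 6 counts in A, and the transactivator Ciita had 0 counts in C and B and 1 in A.

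**Figure D5:**
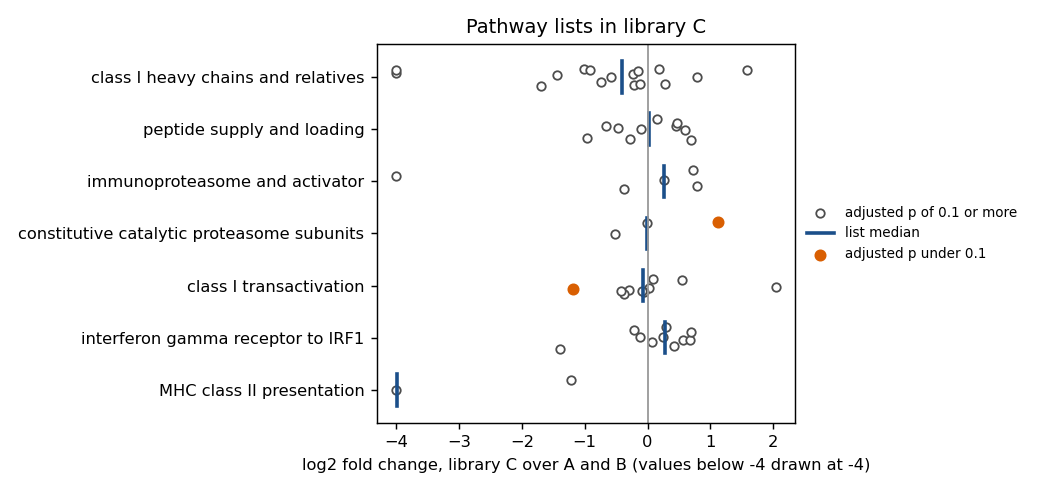
Log2 fold change of library C over A and B for each tested gene (points) of 7 pathway lists, with list medians (blue bars) and values below -4 drawn at -4. Psmb6, higher, and Irf1, lower, are the filled points called at an adjusted p under 0.1.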

How the data were processed

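RNA of sorted IEC was read as SMART-Seq2 libraries on an Illumina HiSeq. The authors used Trimmomatic 0.39 for trimming, Salmon 0.14.1 for quantification on the Ensembl GRCm38.p6 transcripts, and tximport for gene totals. What they deposited are unscaled estimated counts by Ensembl gene ID, already whole. Symbols, coordinates and lengths came from GENCODE M21 (35506 of 35824 genes matched), an annotation of the same build but another release, and promoters from RefSeq GRCm38.p6.

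Counts were scaled with TMM factors in edgeR 4.0.16 (R 4.3.3). The filterByExpr function chose the genes to test, and a quasi-likelihood F test set library C against the A and B pair, with p-values adjusted by Benjamini-Hochberg over every gene tested. This leaves 1 residual degree of freedom, takes C to vary like A and B, and compares libraries, not conditions. The labels call the libraries biological replicates, and nothing says that they came from separate animals, so the spread may be technical. Standard errors are the log2 fold change over the square root of F. The 95% Poisson intervals describe counting error alone, as these libraries carry no molecular identifiers. Exon lengths are the union of all exons of a gene. The fit was tested on simulated data with 200 changed genes per run. Of the simulated 4-fold changes 60% were called, and no smaller change was simulated. The simulation thus does not show how often a change of the size seen for Irf1 would be found.

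The members and lists were chosen with earlier results of these data known. All 10 members are named, with every called gene and the 3 most abundant genes of each list. Alternatives were other scalings (size factors from DESeq2 1.42.0, plain totals, totals leaving out mitochondrial genes), other filters, the DESeq2 Wald test, a threshold of 0.05, removal of length or GC trends by loess, other prior counts, transcript length and leaving out each library. Tables were handled in Python 3.11.15 with pandas 2.3.3, scipy 1.17.1 and matplotlib 3.10.9. Single values of some list and marker genes are not reported here.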

Additional observations from a re-analysis of the deposited data

How the results depend on the processing

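Of 118 values of the log2 fold changes of members under an alternative, 111 kept their direction and side of the threshold or moved by less than the spread of A and B. Besides Irf1, which lost its call with the GC trend removed (-1.08) and at a threshold of 0.05, the sign turned for Tap1 with the GC trend removed (0.114) and over the values leaving out 1 library (-0.339 to 0.194), and for H2-D1 when its counts were summed with those of H2-K1 (-0.083), none of which was called. Psmb8 moved when A or B was left out, its counts being all in B. The adjusted p of Irf1 ranged between 0.00947 (no filter) and 0.107 over the fits.

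The count of all genes called, 898, was 2402 with no filter, 1618 with the DESeq2 Wald test and 276 at a threshold of 0.05. The count of members called was 0 with the GC trend removed and 0 at a threshold of 0.05, against 1. The 2 genes called over the pathway lists became 4 with plain totals, 5 with no filter, 4 with DESeq2, 1 with the length trend removed and 0 at a threshold of 0.05. With the longest transcript in place of all exons, Psmb9 was at 0.629% of Psmb6, and Irf1 stood above Tapbp per kilobase, the only exchange of places among the 10 genes. Leaving out 1 library each, Psmb9 to Psmb6 ranged between 0.849% and 1.1304%, Psmb10 to Psmb7 between 171% and 239%, and Psmb8 to Psmb5 between 0% and 0.0467%. No paired analysis was possible because the libraries form 1 group with a replicate number each.

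Psmb8 and Nlrc5 had 0 counts in A and in C, the library with the most counts, against 20 and 6 counts in B. Their counts of 0 leave room for levels up to about 0.105 CPM in C and 0.166 CPM in A, the limit of 3 counts.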
